A study of Mus musculus with 12 samples.

Results

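The genes of the cytosolic ribosomal proteins were examined in splenic B cells with and without Runx1. Protein-coding genes were taken whose symbol is Rpl or Rps followed by a digit, or is Rplp0, Rplp1, Rplp2 or Rpsa, leaving out the Rps6k kinases, pseudogenes and symbols with a hyphen. This gave 85 members of 37991 genes in the table, 51 named for the large subunit and 34 for the small one. By name, 76 are core ribosomal proteins, 45 of the large and 31 of the small subunit, and 8 are paralogs of core genes. The remaining member, Rps19bp1, met the symbol rule but encodes a protein that binds Rps19. The name Rpl41 was not found in the annotation used here. The members lie on 19 chromosomes, with 14 on chromosome 7.

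RNA was sequenced from resting B cells of the spleen of 8-week-old mice, taken at 0 h or after 3 h with anti-IgM+IL4, which engage the B cell receptor and the IL-4 receptor. All groups carried the CD23-iCre transgene, whose Cre is first made at the transitional B cell stage. Cre-only mice are labelled with the transgene alone, and Runx1 c-k/o mice (CD23iCre/Runx1 ck/o) also carried Runx1 alleles with loxP sites around exon 4. Each of the 4 groups had 3 samples, numbered in the labels without naming the mouse. The p-values therefore measure the spread between these samples, which may in part be technical.

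The cytosolic ribosome is built from a small subunit, which reads the mRNA, and a large subunit, which forms the peptide bond. Most core ribosomal proteins are needed in equal numbers, and their mRNAs usually begin with a run of pyrimidines, the TOP motif, through which their translation is switched on when the mTOR kinase is active. Lymphocytes leaving rest enlarge and make ribosomes, a process that also needs rRNA synthesis and nucleolar assembly factors. A poly(A) RNA count shows the relative amount of an mRNA and not its translation.

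Between 14442251 and 23641552 reads were counted on genes per sample. In bulk RNA, fewer cells of a type and less RNA per cell cannot be told apart, and counts scaled within a library do not show changes in total mRNA per cell. The 9 B cell markers examined, Pax5 and Cd79a among them, had counts in all 12 libraries. The T cell gene Cd3e stayed at group means between 0.115 and 0.267 CPM (read count relative to the TMM-scaled library size) and was at 0 in 1 library. Runx1 itself, the targeted gene, was counted over all its exons, so its level does not check the deletion. Its level was 84.0 ± 2.48 CPM in resting Cre-only and 99.9 ± 3.75 CPM in resting Runx1 c-k/o cells, and 36.8 ± 1.82 and 64.1 ± 14.7 CPM at 3 h (SD, n = 3). Both Runx1 c-k/o groups held 1 library with a raised share of ribosomal protein counts, resting replicate 2 and 3 h replicate 1, and results that rest on them are given with and without them.

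Sequence around the annotated transcription start is shown for 6 abundant members, to show the pyrimidine run for which the family is known and a window without it. They had the highest and lowest change at 3 h in Cre-only cells among members above the median level per length for which a window was found. The sequences are from RefSeq, build GRCm38.p6, read 5′ to 3′ on the coding strand from 25 bases before the start. Capitals mark the whole stretch of C and T around the motif searched for: a C at the first base or within 5 bases of it, followed by at least 4 C or T. Among these, Rps27, Rpl13a and Rps9 had the lowest changes and Rpl18, Rpl10 and Rplp2 the highest.
Rps27 (chr3:90213624-90213673, minus strand): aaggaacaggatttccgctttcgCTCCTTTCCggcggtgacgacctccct
Rpl13a (chr7:45128721-45128770, minus strand): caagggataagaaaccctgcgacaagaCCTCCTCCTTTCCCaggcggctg
Rps9 (chr7:3704016-3704065, plus strand): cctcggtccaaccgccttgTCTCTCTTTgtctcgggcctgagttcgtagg
Rpl18 (chr7:45718046-45718095, plus strand): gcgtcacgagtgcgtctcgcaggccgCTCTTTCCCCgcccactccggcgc
Rpl10 (chrX:74270791-74270840, plus strand): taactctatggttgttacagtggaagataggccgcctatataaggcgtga
Rplp2 (chr7:141447626-141447675, plus strand): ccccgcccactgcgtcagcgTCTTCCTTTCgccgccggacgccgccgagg

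All these windows but that of Rpl10 held a run, of 9 bases in Rps27 and Rps9, 10 in Rpl18 and Rplp2 and 14 in Rpl13a. In the Rpl10 window the letters tatata lie after the annotated start. Whether annotated starts match those used in these cells was not checked, and a shifted start would hide a run, here or in the shares below. A window from 250 bases before to 50 after the start was found by symbol for 63 members, 55 of them core. A run at the start was present in 26 of 55 core windows (47.3%), against 4989 of all 27025 windows (18.5%). The ETS-type letters TTTCCG or CCGGAAG on either strand were in 58.2% of core windows and 16.2% of all windows. The YY1 core ATGGCG was in 25.5% against 9.24%, and the GC box GGGCGG in 58.2% against 35.9%, again on either strand. TATAAA between 40 and 20 bases before the start was in 0 of 55 core windows and 2.09% of all windows, and TATATA in 5.45% and 0.984%. The RUNX-type letters TGTGGT and TGCGGT, on either strand, were in 9.09% and 7.27% of core windows, against 16.9% and 6.43% of all windows. The 7 paralog windows held a run in 2 and neither RUNX-type motif. These shares are descriptions of letters, and windows of genes that overlap or share a promoter were counted separately.

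The members spanned a wide range of levels. In resting Cre-only cells, the 82 members that passed the filter on low counts had a median of 995 CPM per kb of transcript, between 4.33 and 3365. The highest were Rps27, a zinc-binding protein of the small subunit, at 3365, Rps24 at 3213, Rpl23 at 2708, Rps18 at 2382 and Rplp0, the base of the large subunit's stalk, at 2233 CPM per kb. These are levels per length, with the length taken as the median over a gene's coding transcripts, so a gene with a long annotated form such as Rps20 (3706 bases, 223 CPM per kb) reads low. Of the 5 tested paralogs Rpl22l1 was highest at 204, Rpl36al was at 112, Rps27l at 26.8, Rpl7l1 at 18.1 and Rps4y2 at 4.33 CPM per kb, with Rps19bp1 at 8.46. The other 3 paralogs were at or near 0: Rpl10l had 0 counts in all 12 libraries, Rpl3l between 0 and 3, and Rpl39l between 0 and 13. None of these passed the filter. For Rpl10l, 0 counts allow a level of up to 3 counts, which is 0.127 to 0.208 CPM by library, for counting error only.

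The replicates of Cre-only cells were close to each other. The widest member in resting Cre-only cells was Rpsa, the laminin-receptor homologue of the small subunit, whose highest library was 1.25 times the lowest, and at 3 h it was Rps4y2 at 1.39 times. Among Runx1 c-k/o libraries the widest were Rps19bp1 at rest (2.29 times) and Rpl13 at 3 h (2.02 times).

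**Figure D1:**
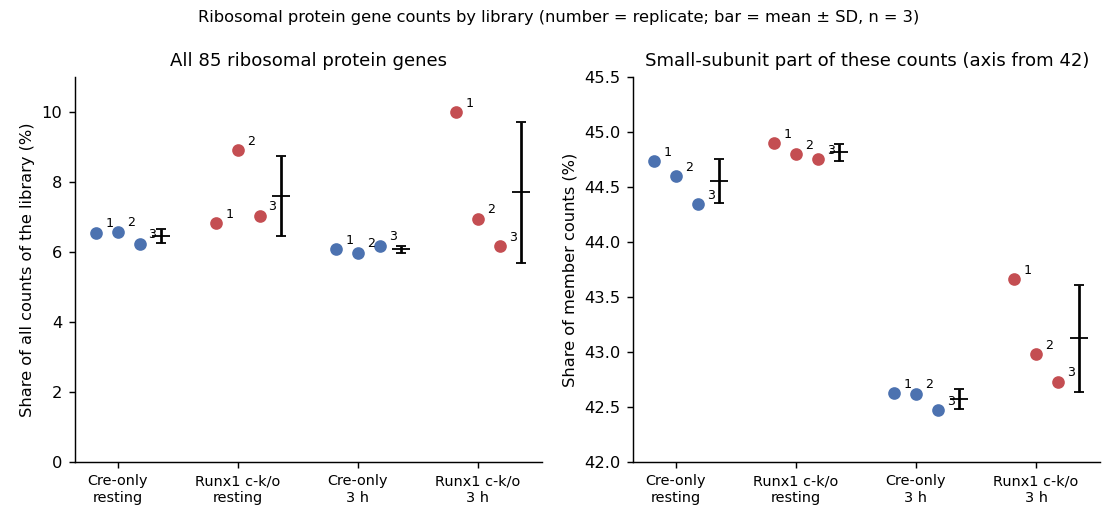
Left, counts on the 85 genes as a percentage of all counts of a library. Right, the part of these counts on the 34 small-subunit genes, in percent, with an axis that starts at 42. Each point is a library with its replicate number, and bars give mean ± SD of 3. Resting replicate 2 (8.91%) and 3 h replicate 1 (9.997%) of Runx1 c-k/o stand above all other libraries on the left, and all 3 h libraries lie below all resting ones on the right.

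The share of each library that fell on the members varied between libraries and groups. In resting Cre-only cells the share was 6.55%, 6.58% and 6.24% of all counts, and after 3 h it was 6.08%, 5.97% and 6.17%, so that the 3 h libraries lay below the resting ones without overlap. In resting Runx1 c-k/o cells it was 6.83%, 8.91% and 7.04%, all above resting Cre-only cells. At 3 h it was 9.997%, 6.96% and 6.17% in Runx1 c-k/o cells, of which replicate 3 lay within the Cre-only range. The means were 6.46% ± 0.190 and 7.59% ± 1.15 at rest, and 6.08% ± 0.0996 and 7.71% ± 2.02 at 3 h, for Cre-only and Runx1 c-k/o (SD, n = 3).

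The balance between the subunits moved with activation in both genotypes. Small-subunit genes held 44.7%, 44.6% and 44.3% of the members' counts in resting Cre-only cells and 42.6%, 42.6% and 42.5% at 3 h. They held 44.9%, 44.8% and 44.8% at rest and 43.7%, 43.0% and 42.7% at 3 h in Runx1 c-k/o cells. Every 3 h library was below every resting library, the 2 libraries with raised shares included.

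In these 2 libraries the members were raised together. In resting Runx1 c-k/o replicate 2 all 82 tested members were at their highest of the 3 replicates, with a median log2 difference of 0.44 from the mean of the other 2 libraries. In 3 h replicate 1 all 82 were again highest, with a median of 0.77. Across the 12 libraries the median over all 13538 tested genes stayed between -0.04 and 0.09. Other genes moved in the same libraries: genes of the mitochondrial ribosome by medians of 0.52 and 0.60, other protein-coding genes with transcripts up to 1500 bases by 0.24 and 0.25, and those over 4000 bases by -0.14 and -0.40. Genes called higher by over 1 on the log2 scale with activation in Cre-only cells were raised by a median of 0.44 in the resting and 0.21 in the 3 h library. The part of transcript length or activation state in the raised shares was not tested.

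**Figure D2:**
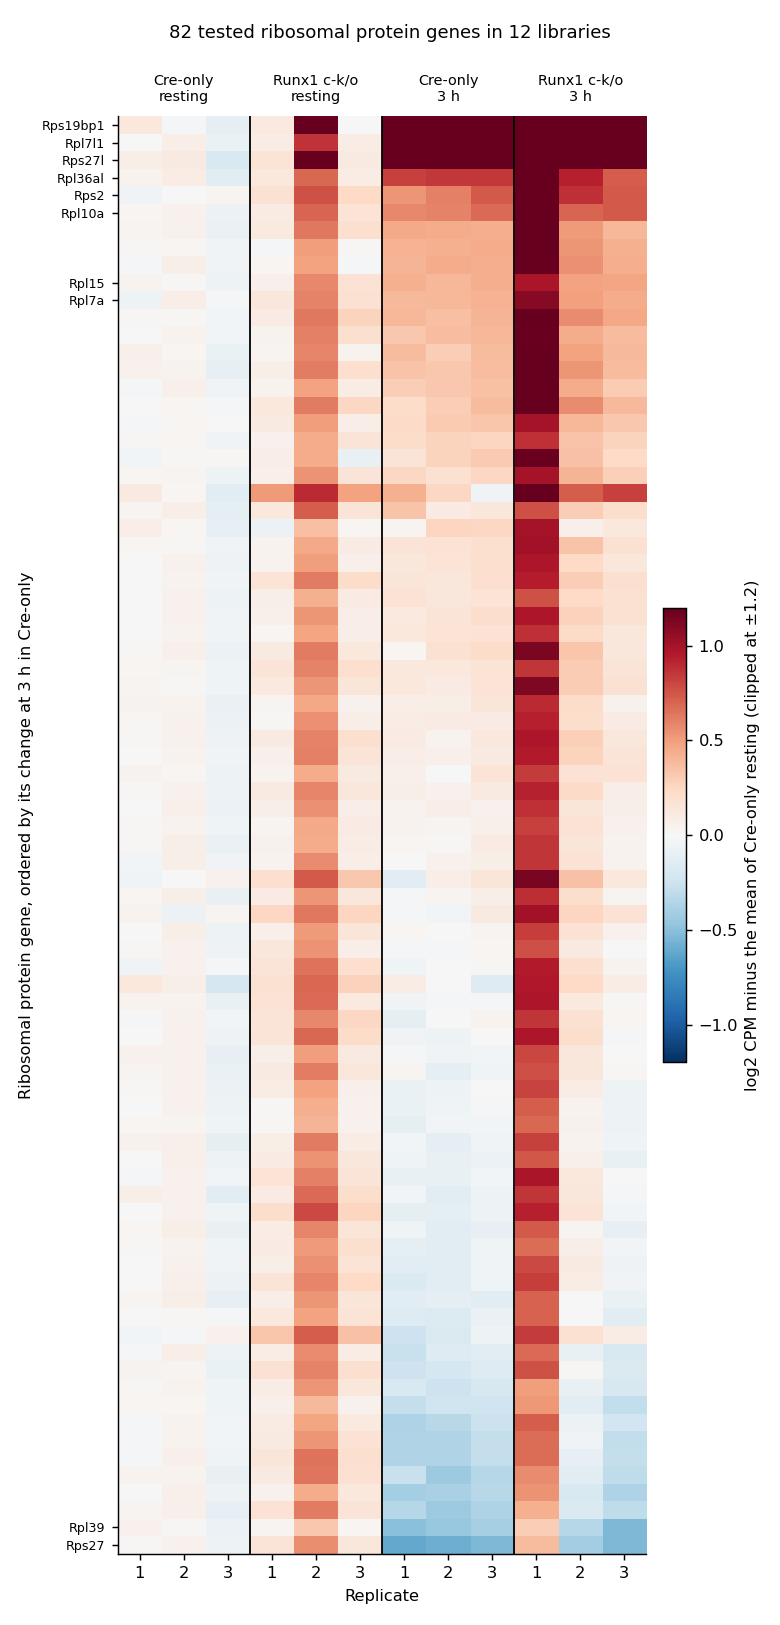
Level of each of the 82 tested genes (rows, ordered by change at 3 h in Cre-only cells, with names for the 10 called there) in each library (columns, by group and replicate), as log2 CPM minus the mean of resting Cre-only cells, clipped at 1.2 in either direction. Red is higher and blue lower. The 3 top rows are red in all 3 h libraries, Rps27 at the bottom is blue in all Cre-only 3 h libraries, and resting replicate 2 and 3 h replicate 1 of Runx1 c-k/o are red in nearly every row.

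The change with activation was first compared within Cre-only cells. Most ribosomal protein mRNAs did not pass the test while a few paralogs rose strongly: 8 of 82 tested members rose, 2 fell and 72 did not pass the threshold (quasi-likelihood test of edgeR, with p adjusted over all 13538 tested genes and a threshold of 0.05). By the same test 75% of all genes were called, 38.6% higher and 36.4% lower, against 12.2% of members. The median log2 fold change of the members was 0.05, beside 0.03 for all tested genes. Among the 45 large-subunit core genes 3 rose and 1 fell, and among the 31 of the small subunit 1 rose and 1 fell.

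Of the core genes, Rps2 of the small subunit and Rpl10a of the large one rose most. Rps2 (chr17:24855061-24858874, build mm9) was at 656, 676 and 689 CPM at rest and at 971, 1027 and 1123 CPM at 3 h, a log2 fold change of 0.63 ± 0.21 (SE; adjusted p = 0.0157). Rpl10a was at 509, 521 and 477 CPM and then at 747, 760 and 805 CPM (0.62 ± 0.21, adjusted p = 0.0181). The resting and 3 h libraries of both genes did not overlap. The same held, in the higher direction, for 43.8% of all tested genes and 41.5% of members. Rpl15 rose by 0.42 (adjusted p = 0.0261) and Rpl7a by 0.40 (adjusted p = 0.0486), both of the large subunit.

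Rps27 and Rpl39, among the smallest ribosomal proteins, fell. Rps27 (chr3:90016593-90017573) went from 1171, 1202 and 1110 CPM to 758, 771 and 798 CPM, a log2 fold change of -0.58 ± 0.21 (adjusted p = 0.0226). Rpl39 (chrX:34622515-34625397) went from 440, 431 and 406 CPM to 300, 311 and 324 CPM (-0.45 ± 0.18, adjusted p = 0.0349). For both, every 3 h library was below every resting library, as for 40.6% of all tested genes and 22.0% of members. Rpl17, the next lowest, had -0.38 and did not pass the threshold.

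Same-numbered Cre-only samples deviated together, and with the replicate number as a block within genotype 6 members were called higher and 1 lower, beside 36.8% and 35.1% of all genes, Rpl15, Rpl7a and Rpl39 being lost. The shared estimate of spread in this fit took in the 2 Runx1 c-k/o libraries that stand apart. Without them, a choice made from the members' own shares, 23 members were called higher and 20 lower in Cre-only cells, against 40.7% and 41% of all genes, and with only the 2 Cre-only groups 24 and 30, against 41.9% and 42.1%. All 10 members called with the 12 libraries were among those called without these 2 in the same direction. Both fits hold the same Cre-only libraries, so this was close to fixed in advance and gives no support. The direction also rested on the scaling and the model. In Cre-only cells the members' median was -0.04 with DESeq2 size factors and -0.08 with library totals alone, beside -0.06 and -0.10 for all genes. Another fit added 1 factor of unwanted variation (RUVs) to the DESeq2 model as a covariate. In Cre-only cells this factor was 0.941 to 1.04 at rest and -0.740 to -0.627 at 3 h, so it was largely confounded with activation. With it, 3 members were called higher and 78 lower in Cre-only cells (30.1% and 31.8% of all genes). Runx1 c-k/o cells gave 3 higher and 76 lower (29.1% and 30.1%). The members' medians were then -0.84 and -0.72.

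Without the 2 libraries that stand apart, and with TMM scaling, the calls in Cre-only cells divided by subunit as follows: 16 large-subunit core genes rose and 8 fell, and 3 of the small subunit (Rps2 and Rps27a among them) rose and 12 fell. Of all genes 40.7% were called higher and 41% lower in this fit. Leaving these libraries out narrows the spread of the members by construction, so the calls in this paragraph are a description and not a test. Those that fell, beyond Rps27 and Rpl39, were modest, from -0.43 for Rpl17 and -0.42 for Rpl13a, which is also an interferon-linked regulator of translation, to -0.14 for Rplp1. Those that rose included Rpl35 (0.40) and Rps27a (0.31), which is made as a fusion with ubiquitin. In the acidic stalk, which recruits elongation factors, Rplp0 (0.18) and Rplp2 (0.20) rose and Rplp1 fell. Rpl5 (0.01) and Rpl11 (0.06), which bind 5S rRNA and the p53 regulator Mdm2, and Rps6, the classic target of S6 kinase, were not called. These values, too, are log2 fold changes.

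With all 12 libraries no stalk gene passed the threshold in Cre-only cells. Rplp0 was at 1572, 1589 and 1489 CPM at rest and 1841, 1761 and 1836 CPM at 3 h, Rplp2 at 511, 530 and 530 and then 583, 630 and 649 CPM, and Rplp1 at 965, 1003 and 935 and then 895, 899 and 928 CPM. The groups did not overlap for any of them, with log2 fold changes of 0.23, 0.24 and -0.09. Such non-overlap was common in Cre-only cells. Of all tested genes 43.8% were higher at 3 h without overlap and 40.6% lower, against 41.5% and 22.0% of members.

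In Runx1 c-k/o cells 13 of 82 members rose and 0 fell, with 69 not called, against 37.7% of all genes called higher and 36.6% lower. Before adjustment (p under 0.05) 17 members were higher and 0 lower, against 38.7% and 37.3% of all genes, and DESeq2 called 10 higher and 0 lower, against 36.3% and 37.6% of all genes. In either direction 74.3% of all genes were called. Of the 8 members that rose in Cre-only cells 7 were among these 13, and the 6 called here and not in Cre-only cells (among them Rpl14, Rps27a, Rpl8, Rpl29 and Rpl36) had Cre-only changes between 0.30 and 0.43. Their difference between the genotypes was tested with the interaction term below.

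These counts rested on single libraries. Without 3 h replicate 1, 8 members rose and 21 fell, against 37.2% and 36.6% of all genes. Without resting replicate 2, 24 rose and 0 fell, against 37.5% and 35.9%. With both left out 22 rose and 18 fell, beside 38.6% and 38% of all genes, and all 22 and all 18 were among the 23 and 20 called in the same fit in Cre-only cells. These calls, too, are a description, since both libraries were chosen by the members' own shares. Rps27 was at 1291, 1706 and 1275 CPM at rest and at 1512, 866 and 797 CPM at 3 h, replicate 1 at 3 h lying among the resting libraries and the other 2 below them. Its log2 fold change was -0.43 with all libraries (adjusted p = 0.0790) and -0.65 without both.

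**Figure D3:**
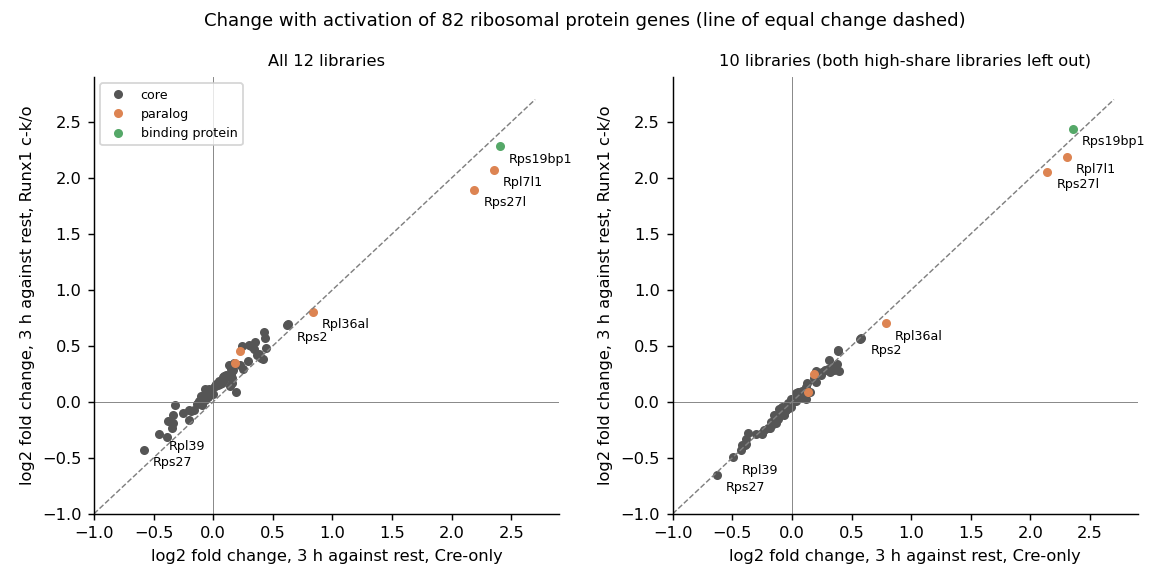
Log2 fold change at 3 h over rest of each of 82 genes, with Cre-only cells on the horizontal and Runx1 c-k/o cells on the vertical axis, with all 12 libraries (left) and without resting replicate 2 and 3 h replicate 1 of Runx1 c-k/o (right). Colours give core genes, paralogs and the binding protein, and the dashed line marks equal change. Points lie along the line, from Rps27 (-0.58) to Rps19bp1 (2.40) in Cre-only cells.

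The order of the changes was alike in the genotypes, which share no samples in this contrast. Across the 82 members the Pearson r between the changes of the genotypes was 0.99 and Spearman's rho 0.97, and 0.97 and 0.96 across the 76 core genes alone. These describe genes and not replicates, and genes of a library share its depth and composition. Among core genes the change in Cre-only cells had a rho of 0.06 with transcript length and of -0.35 with the resting level per kb, which shares its samples with the change.

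With activation 3 of the 5 tested paralogs were called higher in Cre-only cells while their core partners were not, although with RUVs the change of Rpl36al was 0.00 in edgeR and below 0 in DESeq2. Rpl7l1, a relative of Rpl7, was at 46.9, 49.9 and 44.6 CPM in resting Cre-only cells and at 233, 256 and 234 CPM at 3 h, a log2 fold change of 2.35 ± 0.20. Rps27l, a relative of Rps27 and a known p53 target, went from 14.1, 14.3 and 11.7 CPM to 57.4, 64.5 and 61.9 CPM (2.19 ± 0.28), while Rps27 fell. Rpl36al, nearly the same protein as Rpl36a, went from 87.2, 89.8 and 77.1 CPM to 150, 152 and 152 CPM (0.84 ± 0.21, adjusted p = 0.00272). In none of these did the resting and 3 h libraries overlap, while 43.8% of all tested genes were likewise higher without overlap.

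The same paralogs rose in Runx1 c-k/o cells. Rpl7l1 rose by 2.07, Rps27l by 1.90 and Rpl36al by 0.81 on the log2 scale, and none overlapped between rest and 3 h. In these cells 36.5% of all tested genes were higher at 3 h without overlap. Rps19bp1, which also activates the deacetylase Sirt1, rose by 2.40 ± 0.29 in Cre-only and by 2.28 ± 0.29 in Runx1 c-k/o cells, from 6.4 to 7.7 CPM at rest to 35.8 to 38.2 CPM at 3 h in Cre-only cells. Without the 2 libraries that stand apart these values were 2.31 and 2.19 for Rpl7l1, 2.14 and 2.05 for Rps27l, 0.79 and 0.70 for Rpl36al and 2.35 and 2.44 for Rps19bp1.

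**Figure D4:**
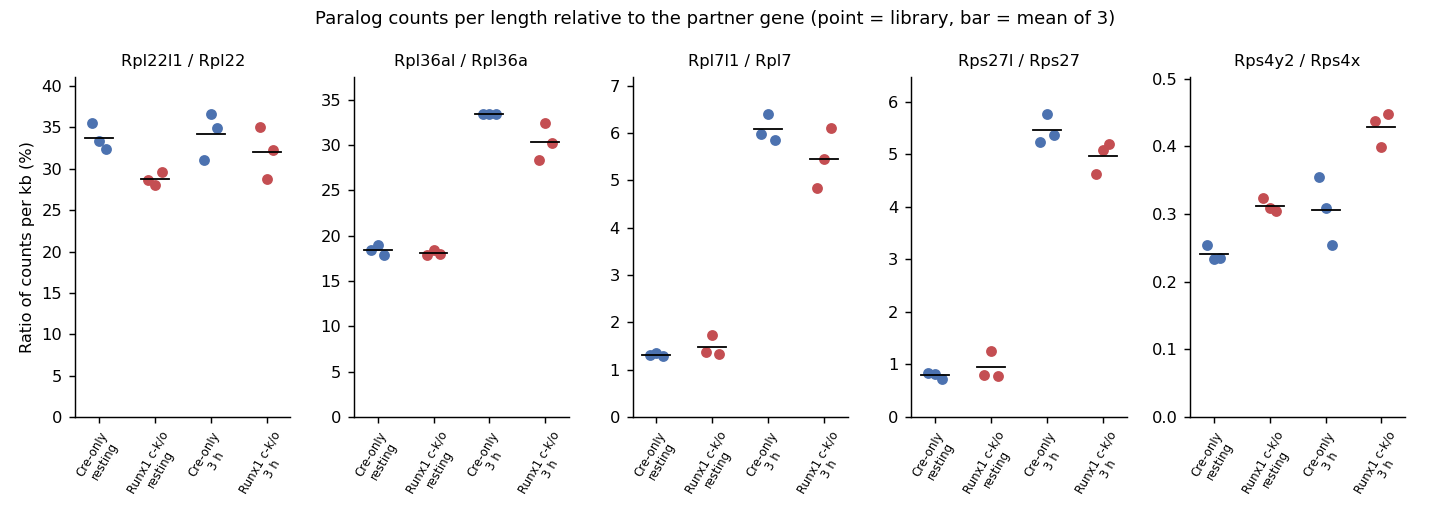
Counts per kb of each tested paralog as a percentage of those of its core partner, by group. Points are libraries and bars are means of 3. The ratios of Rps27l, Rpl7l1 and Rpl36al are higher in all 3 h libraries than in all resting ones, and that of Rpl22l1 is not.

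As a ratio to the partner, per length, Rps27l went from 0.796% ± 0.0577 to 5.46% ± 0.283 of Rps27 in Cre-only cells and from 0.947% ± 0.274 to 4.97% ± 0.305 in Runx1 c-k/o cells (SD, n = 3). Rpl7l1 went from 1.32% to 6.08% of Rpl7, and Rpl36al from 18.4% to 33.4% of Rpl36a, in Cre-only cells. Of the partners in Cre-only cells, Rpl7 (log2 fold change 0.15) and Rpl36a (-0.02) were not called. Rps27 was called lower (-0.58), so part of the change in its ratio lies in the partner. A ratio of this kind depends on which transcript length is taken, and its change does not.

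Rpl22l1, a paralog of Rpl22 that Rpl22 is known to hold down, did not follow this pattern. In Cre-only cells it stood at 33.8% ± 1.61 of Rpl22 per length at rest and 34.2% ± 2.85 at 3 h, and its log2 fold changes of 0.18 and 0.34 did not pass the threshold. In resting Runx1 c-k/o cells the ratio was 28.7%, 28.1% and 29.6%, below all 3 resting Cre-only libraries at 35.6%, 33.4% and 32.4%. At 3 h the genotypes overlapped, at 35.1%, 28.7% and 32.3% against 31.1%, 36.7% and 34.9%. With 3 samples against 3, an exact permutation test cannot go below a p of 0.1. The ratio of Rps4y2 to Rps4x was higher in Runx1 c-k/o libraries without overlap at both times, at 0.323%, 0.309% and 0.304% against 0.254%, 0.234% and 0.235% at rest, and 0.438%, 0.399% and 0.449% against 0.355%, 0.309% and 0.254% at 3 h.

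The rest of the ribosome's supply moved differently. All 30 genes listed for ribosome assembly and rRNA synthesis rose with activation in both genotypes, with median log2 fold changes of 2.46 (Cre-only) and 2.31 (Runx1 c-k/o). Of 75 tested genes of the mitochondrial ribosome 68 rose and 0 fell in Cre-only cells (median 1.09), while Runx1 c-k/o cells had 70 and 0 (median 1.06). Of 20 other genes whose mRNAs carry a TOP motif, such as elongation factors, 13 rose and 1 fell (median 0.62), and then 13 and 0 (median 0.68). Beside these the cytosolic members had medians of 0.05 and 0.16. All medians here are relative to the same TMM scaling, which for all genes gave 0.03 and 0.00. Of all genes 38.6% were called higher and 36.4% lower in Cre-only cells, while Runx1 c-k/o cells had 37.7% higher and 36.6% lower.

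Ribosomal proteins outside the symbol rule also differed among themselves. Fau, the fusion that gives the small-subunit protein eS30, went from 694, 682 and 613 CPM to 443, 445 and 453 CPM in Cre-only cells, a log2 fold change of -0.57 ± 0.21 (adjusted p = 0.0273), close in size to that of Rps27. In Runx1 c-k/o cells it was at 714, 975 and 762 CPM at rest and at 880, 522 and 440 CPM at 3 h, a change of -0.41 that did not pass the threshold (adjusted p = 0.0950). Without 3 h replicate 1 the change of Fau was -0.77, without resting replicate 2 it was -0.26, and without both it was -0.64, beside -0.62 in Cre-only cells in that fit. Gnb2l1, the symbol here for the small-subunit scaffold Rack1, was at 1376, 1437 and 1321 CPM and then 1553, 1561 and 1549 CPM (0.17, not called). Of 15 tested regulators of ribosomal protein synthesis, Myc and Mtor among them, 10 were called higher and 1 lower in Cre-only cells, while Runx1 c-k/o cells had 9 and 1, against 38.6% and 36.4%, and 37.7% and 36.6%, of all genes.

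The second comparison asked how loss of Runx1 changed these genes at rest. Ribosomal protein mRNAs were higher on average in Runx1 c-k/o cells but no member passed the threshold: 0 of 82 were called in either direction, against 1.49% of all tested genes (0.731% higher and 0.761% lower), with 2 higher and 0 lower before adjustment, against 6.03% and 5.02% of all genes, and 0 called by DESeq2, which called 2.79% of all genes. The fitted log2 differences of all 82 were above 0, with a median of 0.28 beside 0.03 for all genes, between 0.12 for Rpl22l1 and 0.63 for Rps4y2, and the smallest adjusted p was 0.302. Related sets also had medians above 0: 0.27 for the ribosome assembly list, 0.20 for the mitochondrial ribosome and 0.17 for the other TOP genes. Other protein-coding genes up to 1500 bases had 0.10, and those over 4000 bases -0.07. The 2 higher before adjustment became 0 without Runx1 c-k/o replicate 2 and 10 without Runx1 c-k/o replicate 1. The members of one library move together, so the shared direction counts as 1 observation per library and not as 82.

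For 60 members every resting Runx1 c-k/o library was above every Cre-only library and for 0 below, against 12% and 11.6% of all genes. Core genes of the large and small subunits had medians of 0.28 and 0.27, and the stalk genes Rplp0, Rplp1 and Rplp2 had 0.27, 0.44 and 0.16. Rpl30 was at 538, 544 and 570 CPM in Cre-only and 696, 913 and 701 CPM in Runx1 c-k/o cells, a log2 difference of 0.48 ± 0.18 (adjusted p = 0.306).

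At 3 h the picture was alike and more uneven between libraries. Again 0 of 82 members were called, against 2.77% of all genes (1.47% higher and 1.3% lower), with 22 higher and 0 lower before adjustment (p under 0.05), against 7.38% and 8.83% of all genes, while DESeq2 called 2 higher (Rps4y2 and Rpl30), against 3.12% of all genes. The 22 became 2 without Cre-only 3 h replicate 1, 76 without Runx1 c-k/o 3 h replicate 3 and 8 with the replicate number as a block. With 1 RUVs factor DESeq2 called 58 higher at 3 h and 5 at rest, against 5.19% and 2.22%, with medians of 0.22 and 0.14. All 82 fitted differences were above 0, with a median of 0.38 beside 0.01 for all genes, from 0.11 for Rpl7l1 to 0.86 for Rps4y2. Medians at 3 h were 0.22 for the mitochondrial ribosome, 0.22 for the other TOP genes and 0.12 for the ribosome assembly list. Other protein-coding genes up to 1500 bases had 0.10, and those over 4000 bases -0.16. For 30 members all Runx1 c-k/o libraries were above all Cre-only ones, and for 0 below, against 9.5% and 12.3% of all genes, and for 26 this held at both times, against 3.5%.

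Rpl30, Rps13 and Rps4y2 illustrate these differences, and the first and second of them were picked after their values were seen. Rpl30 (chr15:34370260-34373395), which also regulates its own splicing in yeast, was at 464, 488 and 529 CPM in Cre-only and 986, 626 and 585 CPM in Runx1 c-k/o cells at 3 h (0.57 ± 0.18, adjusted p = 0.136). Rps13, of the small subunit, was at 504, 502 and 553 CPM against 1035, 613 and 580 CPM (0.51 ± 0.19, adjusted p = 0.218). Rps4y2, a minor relative of Rps4x, had 127, 74 and 62 counts against 189, 103 and 122 (0.86 ± 0.23, adjusted p = 0.0723). Its raw counts overlapped, while its scaled levels were 5.48, 4.83 and 3.95 CPM against 12.2, 6.76 and 7.18 CPM. In CPM all 3 genes were without overlap between genotypes at both times.

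**Figure D5:**
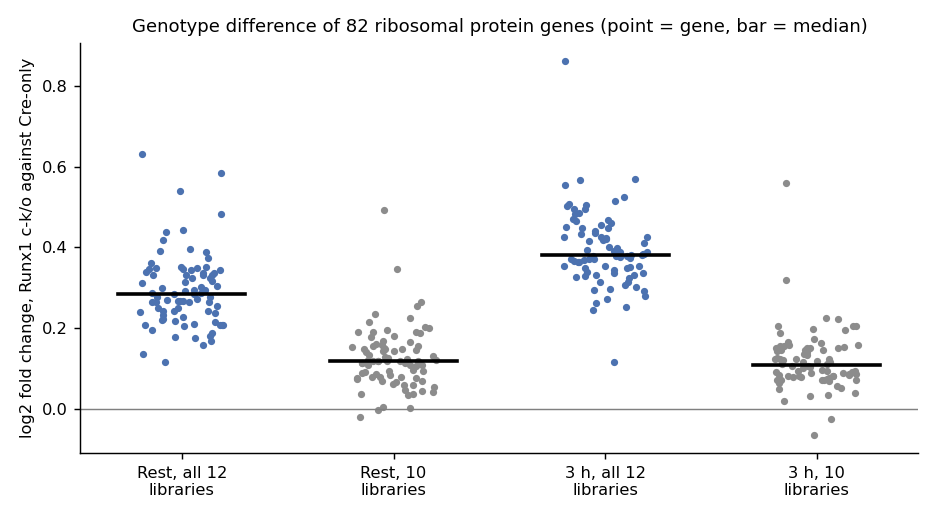
Log2 difference between genotypes (Runx1 c-k/o over Cre-only) for each of 82 genes, at rest and at 3 h, with all 12 libraries and with the 10 left after resting replicate 2 and 3 h replicate 1 of Runx1 c-k/o were taken out. Points are genes and bars are medians, which go from 0.28 to 0.12 at rest and from 0.38 to 0.11 at 3 h.

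Much of the size of these differences came with 1 library at each time. Without resting replicate 2 and 3 h replicate 1 of Runx1 c-k/o, leaving 2 libraries in each of these groups, the median log2 difference was 0.12 at rest and 0.11 at 3 h, with 80 of 82 members above 0 at each time. Rpl30 and Rps13 were then called higher at both times, against 2.09% and 4.11% of all genes. The libraries left out were chosen by the members' own shares, which narrows the spread of the members by construction, so these calls are a description and not a test, and neither gene passed with all 12 libraries. Rpl30 differed by 0.35 at rest and 0.32 at 3 h, and Rps13 by 0.25 and 0.22. Rps4y2, at 0.49 and 0.56 in this fit, was not called. Counts were also assigned to the copy Rps13-ps1, described last.

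Scaled to the members' own summed counts, 0 members were called at either time, against 0.303% and 0.547% of all genes, and the median differences were 0.00 and -0.01. This scaling takes out any difference the members share, so medians near 0 were close to fixed in advance. It shows only how members differ from each other. On that scale the highest were Rps4y2 (0.36) and Rps27l (0.27) at rest and Rps4y2 (0.47) and Rpl30 (0.18) at 3 h, and the lowest Rpl22l1 (-0.16) at rest and Rpl7l1 (-0.24) at 3 h.

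Markers of erythroid cells, the globins above all, reached higher levels in Runx1 c-k/o libraries, with ranges that overlapped those of Cre-only libraries. The summed level of the 7 erythroid genes was 50.1 to 347 CPM in resting Cre-only and 325 to 545 CPM in resting Runx1 c-k/o cells, and 18.6 to 183 and 152 to 268 CPM at 3 h, with Klf1 at group means of 0.0862 to 0.558 CPM. Summed T cell markers were 36.3 to 41.9 and 30.7 to 43.5 CPM at rest, and 64.4 to 70.7 and 65.7 to 85.5 CPM at 3 h, with most of it on Lck. Myeloid markers were 251 to 306 and 217 to 424 CPM at rest, and 17.7 to 25.9 and 19.5 to 47.0 CPM at 3 h. Summed plasma cell markers, mostly Xbp1 and Igj, did not overlap at 3 h, at 286 to 348 and 398 to 439 CPM, and overlapped at rest. At 3 h the group means of Xbp1 (241 and 327 CPM) and Igj were higher in Runx1 c-k/o cells. Those of Sdc1 (3.98 and 3.41 CPM), Prdm1 and Tnfrsf17 were lower, so the sum does not describe the whole list. At rest Sdc1 was called lower in Runx1 c-k/o cells, with means of 17.9 and 7.04 CPM. Xbp1 itself went from 61.9 to 241 CPM with activation in Cre-only cells. Summed megakaryocyte and platelet markers also did not overlap at 3 h, at 3.27 to 3.44 and 3.71 to 4.86 CPM, and overlapped at rest. Summed B cell markers did not overlap at rest, at 15192.5 to 16045 and 16705 to 18665 CPM, and overlapped at 3 h. Markers of NK and of stromal and endothelial cells overlapped at both times. The part of all these in the members' values was not tested.

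Finally the genotype difference was compared between rest and 3 h, which is the same as comparing the activation change between genotypes. No member passed: 0 of 82 were called, against 0.0813% of all genes, with 0 in either direction without adjustment and 0 by DESeq2, which called 0.613% of all genes. The median was 0.12, with 75 values above 0 and 7 below, from -0.29 for Rps27l to 0.29 for Rps20, and all adjusted p were 0.999. Without 3 h replicate 1 of Runx1 c-k/o all 82 were below 0, with a median of -0.15, and without resting replicate 2 all 82 were above 0, with a median of 0.28. Without the 2 libraries that stand apart, 35 were above 0 and 47 below, with a median of -0.01 and a range from -0.12 for Rpl35 to 0.08 for Rps20. The median SE of these differences was 0.27 with all libraries and 0.09 without these.

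Counts were also assigned to processed copies of some members elsewhere in the genome, and whether reads were shared between them could not be seen from the counts. Genes named as pseudogenes of members held 0.350% as many counts as the members, and at most 3.798% of those of a single member, Rpl10a. For Rpsa the split varied between libraries: the copy Rpsa-ps10 on chromosome 3 held 0.708%, 5.998% and 15.2% of the counts on the pair in resting Cre-only replicates 1, 2 and 3, and 0.873%, 5.5% and 14.7% at 3 h, against 0.677% to 0.754% in Runx1 c-k/o libraries. Rps13-ps1 likewise held 1.37%, 4.76% and 0.982% of its pair in resting Cre-only and 0.0325% or less in Runx1 c-k/o libraries. With copies added to their parents, the resting genotype difference was 0.30 in place of 0.39 for Rpsa and 0.36 in place of 0.39 for Rps13, and neither was called.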

How the data were processed

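RNA from splenic B cells of 4 groups of 3 samples was measured by RNA sequencing. The authors made stranded poly(A) libraries, aligned paired reads to mm9 with TopHat2 2.0.11 and used featureCounts to count reads on Ensembl genes, and the deposited values are raw counts per gene and sample. Base calling used CASAVA 1.8.4 according to the submitters' processing notes. The strand setting and the treatment of reads with several alignments are not given in the sources used here, so members near antisense genes (14 have an exon overlap on the other strand) or with processed copies are uncertain. Spike-in RNA was added by the authors and not analysed here.

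Of 37991 identifiers 37205 had a name in the GENCODE annotation of mm9. The members and gene lists were chosen with earlier results of these data known. Genes were filtered by filterByExpr of edgeR 4.0.16 (minimum 10 counts), which left 13538 genes and 82 of 85 members. After TMM scaling, all 12 samples entered one robust quasi-likelihood model in which each of the 4 groups had its own term. Adjusted p-values are Benjamini-Hochberg values over all tested genes, with a threshold of 0.05. Members named are, in each comparison, up to 10 called in each direction or the 3 most extreme where fewer than 3 were called, the stalk genes, Rpl5, Rpl11, Rps6, Rpsa, Rps27a, paralog pairs, the 5 highest and 5 lowest by level, and the widest between replicates, except some genes that are not reported here. Totals of 14442251 to 23641552 counts set a floor of 3 counts at 0.127 to 0.208 CPM, for counting error only.

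Deviations of same-numbered resting and 3 h samples from their group means correlated at 0.260, 0.165 and 0.134 over genes in Cre-only cells, so the numbers were taken to pair these samples, and at -0.229, -0.247 and 0.228 in Runx1 c-k/o cells, where they were not. There, resting replicate 2 and 3 h replicate 1, the libraries that stand apart, correlated at 0.447. Resting replicate 3 with 3 h replicate 2 gave 0.289, and resting replicate 1 with 3 h replicate 3 gave 0.244. Whether such samples share a mouse is not given in the labels. Alternatives were other scalings and filters, DESeq2 1.42.0, 1 RUVs factor, replicate blocks, only the groups compared, copies added to parents, and each sample left out. Leaving out both high-share libraries and scaling to the members were added after the data were seen. Scripts ran in R 4.3.3 and Python 3.11.15 and were tested on simulated data.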

Additional observations from a re-analysis of the deposited data

Results flagged for a closer look

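Rpl39l (chr16:10170319-10175004, build mm9), a paralog of Rpl39 known for its use in male germ cells, had too few counts to be tested with the filter and was outside the comparisons above. Its counts were 0, 1 and 2 in resting and 0, 1 and 1 in 3 h Cre-only libraries, at or below the floor of 3. In Runx1 c-k/o libraries they were 4, 6 and 4 at rest and 7, 4 and 13 at 3 h, so that all 6 lay above all 6 Cre-only libraries. The summed counts were 38 against 5, which singled it out as a signal above the control samples in data the tests did not use. With no filter on low counts, edgeR's quasi-likelihood test gave log2 differences of 2.28 at rest (adjusted p = 0.441) and 3.50 at 3 h (adjusted p = 0.0429). The gene was picked for these same counts, so the p-values are a description and give no independent support. No cause was tested. No member's activation change differed between the genotypes by the interaction test, and groups of 3 were not searched for single outlying samples.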

How the results depend on the processing

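With the replicate number as a block over all samples, 8 members were called higher with activation in Runx1 c-k/o cells in place of 13, and as a block within genotype 8 there and, in Cre-only cells, 1 lower in place of 2. In Runx1 c-k/o cells the numbers were not taken to pair the samples, so a block there may not follow a real pairing. The block moved no other count of called members by over 1.5 times.

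In Cre-only cells the 8 higher calls became 4 with at least 10 counts in every sample, 24 with only the 2 groups compared, 23 without both high-share libraries, 16 when scaled to the members, 3 with RUVs in edgeR or DESeq2, and 5 to 7 with each sample left out. The 2 lower calls became 9 with library totals alone, with at least 10 counts in every sample or scaled to the members, 4 with DESeq2, 30 with only the 2 groups, 20 without both libraries, 76 and 78 with RUVs, and 0 to 1 with each sample left out. In Runx1 c-k/o cells the 13 higher calls became 8 with DESeq2 size factors, library totals alone, no filter or at least 10 counts in every sample, 4 with only the 2 groups, 22 without both libraries, 3 with RUVs, and 6 to 24 with each sample left out. The 0 lower calls became 3 with totals alone, 2 with at least 10 counts in every sample, 8 scaled to the members, 18 without both libraries, 72 and 76 with RUVs, and 0 to 21 with each sample left out. Between genotypes, the 0 higher calls at rest became 1 and 5 with RUVs and 2 without both libraries. At 3 h they became 1 with no filter, 2 with DESeq2, 14 and 58 with RUVs, 2 without both libraries and 0 to 2 with each sample left out. The cause was not tested, beyond the smaller number of samples where some were left out.

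RUVs reversed these log2 changes, given for edgeR and then DESeq2. In Cre-only cells they were -0.26 and -0.36 for Rpl10a, -0.17 and -0.28 for Rpl15, -0.27 and -0.38 for Rpl7a, -0.46 and -0.56 for Rplp0, -0.65 and -0.76 for Rplp2, -0.20 and -0.31 for Rps2, and -0.10 for Rpl36al in DESeq2. In Runx1 c-k/o cells they were -0.25 and -0.31 for Rpl10a, -0.26 and -0.32 for Rpl14, -0.24 and -0.30 for Rpl15, -0.082 and -0.14 for Rpl36al, -0.40 and -0.46 for Rplp0, -0.48 and -0.54 for Rplp2, -0.19 and -0.25 for Rps2, and -0.43 and -0.49 for Rps27a.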

Other observations

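The copy Rpsa-ps10, annotated as protein-coding at chr3:149735554-149736584 in mm9, had 269, 1966 and 4209 counts in resting Cre-only replicates 1 to 3 and 363, 1495 and 4034 in the 3 h libraries of the same numbers. In Runx1 c-k/o libraries it had between 208 and 357 counts.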
